A study of Mus musculus with 12 samples.

Results

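The 10 genes described here encode proteins of the fibrillar collagens and the interstitial matrix: Col1a1, Col1a2, Col3a1, Col6a1, Col6a2, Dcn, Lum, Fn1, Sparc and Mgp. Every array probe annotated with one of these symbols was taken, which gave 25 of the array's 45281 probes, for 10 of its 30854 gene symbols. The kidneys came from 6 male C57BL/6 mice given colistin, 16 mg/kg per day divided over 2 doses, and from 6 given 0.1% saline 2 times a day. All 12 mice were 10 weeks old, and exposure lasted 72 hours. Total RNA of whole kidney was hybridised to 1-colour Illumina MouseWG-6 v2 BeadChips, on which bead-bound probes read each transcript. Colistin is a polymyxin antibiotic whose use is limited by its toxicity to the kidney, and the comparison asks what differs in kidney transcripts after this exposure.

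Interstitial matrix fills the space between the tubules and capillaries of the kidney and is made largely by resident fibroblasts and perivascular cells. Chains of types I and III collagen assemble into fibrils, type VI collagen forms beaded filaments around cells, and small proteoglycans such as decorin and lumican bind to fibrils and set their spacing. Fibronectin, SPARC and matrix Gla protein belong to the same space, and renal fibrosis is the state in which this matrix accumulates.

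Levels are given as normalized log2 intensity, and differences as log2 fold change (colistin minus saline) with the standard error of the limma fit. A probe counted as detected on an array at a detection p under 0.01, and it was kept for testing if detected on at least 4 of 12 arrays, whatever their group. The arrays detected 14679 to 15870 probes in colistin mice and 14661 to 16154 in saline mice. Each of 2 BeadChips held 3 mice of each group, and the 2 groups took alternate array positions, so position and treatment cannot be told apart. Among the saline mice, mice 2 and 1 lay at opposite ends of the first principal component (64.6, next 28.7, and -27.1), and the array of mouse 5 was dim (95th percentile of raw intensity 475, at least 752 elsewhere). The 5 kidney markers Umod, Slc34a1, Lrp2, Aqp2 and Slc12a3 were each detected on all 12 arrays.

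The matrix genes fell into 3 sets by detection. Probes of 4 genes, Col6a1, Dcn, Sparc and Mgp, were detected on all 12 arrays (7 probes). Col1a1, Col1a2, Lum and Fn1 each had 1 kept probe near background, detected on 4 to 6 arrays. Col3a1 and Col6a2 had no kept probe. Of the 25 probes, 12 were kept and 12 were detected on no array. Since array probes differ in how brightly they bind, levels are not set against each other between genes or probes.

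No matrix gene passed the test between colistin and saline mice. Limma called 0 of the 12 kept probes at an adjusted p under 0.05, where it called 0.457% of all 16179 kept probes. The smallest adjusted p was 0.163, for Dcn. Without adjustment, 6 of the 12 had p under 0.05, all with lower estimates in colistin mice, against 5.35% of all kept probes with such a lower estimate. A two-sided exact test permuting the group labels gave an unadjusted p under 0.05 for 5 of the 12, against 10.5% of all kept probes. Its smallest adjusted p for a matrix probe was 0.260. The smallest p this test can give, 0.00216, became 0.216 after adjustment, so no probe on the array could pass it. Of the 12, 11 had lower and 1 had higher estimates, where 46.9% of all kept probes had lower estimates. Their median log2 fold change was -0.30, against 0.01 over all kept probes. The kept probes of 1 gene are not independent. Probes near background may have passed the filter through 1 group, as that of Col1a2 did through the saline group. These counts therefore describe the probes and are no test of the set. In whole kidney, fewer cells of a type and less RNA per cell cannot be told apart.

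**Figure D1:**
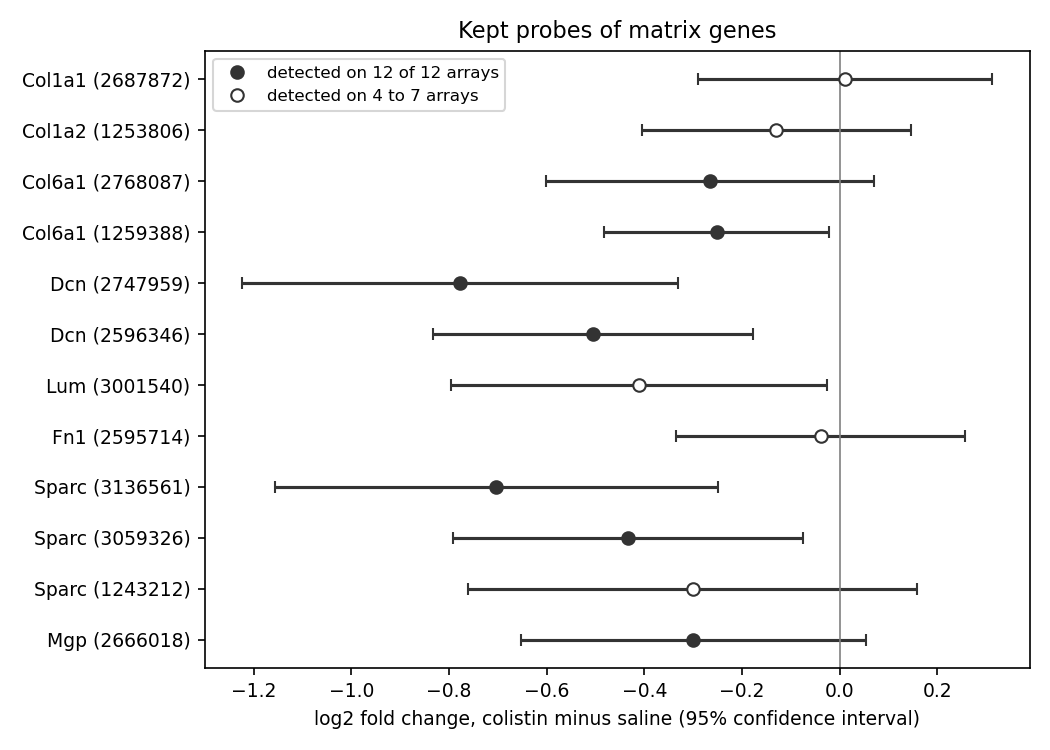
Log2 fold change, colistin minus saline, of the 12 kept probes of matrix genes (x axis), with 95% confidence intervals from limma as bars; each line down the page is 1 probe, named by gene and by the number in its probe identifier. Filled points were detected on 12 of 12 arrays and open points on 4 to 7. Estimates run from -0.78 (Dcn) to 0.01 (Col1a1), and none passed after adjustment over 16179 probes.

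Dcn encodes decorin, a small leucine-rich proteoglycan that binds collagen fibrils and growth factors of the TGF beta family. At probe ILMN_2747959 the level was 8.94, 9.47 and 9.66 (lowest, median and highest) in the 6 colistin mice, against 9.61, 10.02 and 11.09 in the 6 saline mice. The groups overlapped only in that colistin mouse 1 (9.66) lay above saline mouse 3 (9.61). The mean was 9.38 ± 0.27 (SD, n = 6) in colistin mice and 10.16 ± 0.52 (SD, n = 6) in saline mice, a log2 fold change of -0.78 ± 0.21 (SE) with a 95% confidence interval of -1.22 to -0.33. This 1.71-fold lower level did not pass in limma (adjusted p = 0.163; unadjusted exact permutation p = 0.00433). It was -0.99 on BeadChip 1 and -0.56 on BeadChip 2.

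A different Dcn probe, ILMN_2596346, had the same direction. Its level was 5.12, 5.71 and 6.09 in colistin mice, against 5.89, 6.21 and 6.46 in saline mice. The log2 fold change was -0.50 ± 0.15 (SE; limma adjusted p = 0.239), with -0.80 on BeadChip 1 and -0.21 on BeadChip 2. Across the 12 mice these 2 probes correlated at r = 0.73, a description only, since they read the same RNA. The other 2 Dcn probes were detected on no array. Without saline mice 2 and 5, the values of the Dcn probes were -0.56 (adjusted p = 0.212) and -0.46 (adjusted p = 0.476).

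Sparc encodes SPARC (osteonectin), a collagen-binding glycoprotein that takes part in collagen deposition. At probe ILMN_3136561 the level was 8.58, 8.77 and 8.90 in colistin mice, against 8.71, 9.43 and 10.46 in saline mice. The 6 colistin values lay close together. Of the saline mice, mouse 1 (8.71) lay within the colistin range and the other 5 lay above it, with mouse 2 (10.46) the highest. Means were 8.76 ± 0.11 (SD, n = 6) in colistin mice and 9.46 ± 0.59 (SD, n = 6) in saline mice. The log2 fold change was -0.70 ± 0.21 (SE; limma adjusted p = 0.236), a 1.63-fold lower level, and it was -0.71 on BeadChip 1 and -0.70 on BeadChip 2.

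The Sparc call depended on which arrays entered and on how they were weighted. It passed without saline mouse 1 (log2 fold change -0.85, adjusted p = 0.0287), on BeadChip 2 alone (adjusted p = 0.0248) and with array weights estimated from the data (-0.59, adjusted p = 0.0109). Without saline mice 2 and 5 it was -0.41 (adjusted p = 0.359). Those 2 mice were the highest on the first principal component and also the highest at this probe. At probe ILMN_3059326 the level was 5.99, 6.35 and 6.63 in colistin mice, against 6.52, 6.58 and 7.50 in saline mice, with a log2 fold change of -0.43 ± 0.17 (SE; adjusted p = 0.374). That value was -0.29 without saline mouse 2, the highest. Probe ILMN_1243212, detected on 3 of 6 colistin and 4 of 6 saline arrays, gave -0.30 ± 0.22 (SE; adjusted p = 0.595), and -0.02 without saline mice 2 and 5. The last Sparc probe was detected on no array.

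Mgp encodes matrix Gla protein, a vitamin K dependent inhibitor of calcification made by vascular smooth muscle and cartilage. Its 1 probe had levels of 9.45, 9.85 and 10.03 in colistin mice, against 9.43, 10.14 and 10.65 in saline mice. The ranges overlapped widely, since saline mouse 1 had the lowest value of all 12 mice. The mean was 9.80 ± 0.20 (SD, n = 6) in colistin mice and 10.10 ± 0.40 (SD, n = 6) in saline mice, with a log2 fold change of -0.30 ± 0.17 (SE; limma adjusted p = 0.515). It was -0.43 on BeadChip 1 and -0.17 on BeadChip 2, and -0.13 without saline mice 2 and 5 (adjusted p = 0.970). Without saline mouse 2 alone it was -0.19.

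Col6a1 encodes the alpha 1 chain of type VI collagen, which joins the products of Col6a2 and Col6a3 in 1 molecule. At probe ILMN_2768087 the level was 6.45, 6.58 and 6.90 in colistin mice, against 6.40, 6.91 and 7.40 in saline mice. Here saline mouse 2, the highest at Dcn probe ILMN_2747959, at Sparc probe ILMN_3136561 and for Mgp, had the lowest value of the 12 (6.40). The log2 fold change was -0.26 ± 0.16 (SE; limma adjusted p = 0.536), with -0.08 on BeadChip 1 and -0.45 on BeadChip 2. At probe ILMN_1259388 the level was 5.77, 5.92 and 6.15 in colistin mice, against 5.79, 6.24 and 6.35 in saline mice. Its log2 fold change was -0.25 ± 0.11 (SE; adjusted p = 0.418).

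Leaving out saline mice moved the Col6a1 values both ways. Without saline mice 2 and 5 the values at the Col6a1 probes were -0.48 (adjusted p = 0.157) and -0.32 (adjusted p = 0.250), and without saline mouse 6 the value at ILMN_2768087 was -0.17. With array weights, both Col6a1 probes (-0.53, adjusted p = 0.0297, and -0.34, adjusted p = 0.0409) and Dcn probe ILMN_2747959 (-0.55, adjusted p = 0.0411) also passed. The remaining Col6a1 probe was detected on no array.

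Sparc and Col6a1 are the 2 genes detected on all arrays that had a promoter entry, so their upstream sequence is shown. The 250 bases before the transcription start of each are printed from RefSeq (GRCm38.p6), 5′ to 3′ on the gene's strand. This is reference sequence and holds no difference between mice. The Sparc stretch is chr11:55420081-55420330, minus strand, with 54% G and C, and that of Col6a1 is chr10:76726045-76726294, minus strand, with 56% G and C. Capitals mark the 1 motif match found. Both stretches lie near the median of 52.4% over all 32536 promoters searched.
Sparc: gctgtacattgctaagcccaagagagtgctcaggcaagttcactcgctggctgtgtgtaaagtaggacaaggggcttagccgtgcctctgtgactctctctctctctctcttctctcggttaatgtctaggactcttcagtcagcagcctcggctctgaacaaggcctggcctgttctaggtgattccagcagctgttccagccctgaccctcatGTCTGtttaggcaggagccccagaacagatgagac
Col6a1: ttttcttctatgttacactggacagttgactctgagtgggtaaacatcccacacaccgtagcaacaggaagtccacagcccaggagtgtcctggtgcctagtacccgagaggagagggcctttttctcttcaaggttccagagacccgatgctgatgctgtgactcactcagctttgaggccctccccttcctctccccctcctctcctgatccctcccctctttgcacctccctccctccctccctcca
Of the 10 genes, 5 (Col1a2, Col3a1, Col6a1, Col6a2 and Sparc) had an entry. Each was searched on both strands for the TATA box TATAAA (in 12.3% of all promoters), the GC box GGGCGG (33%), the CCAAT box CCAAT (33.8%), the SMAD-binding letters CAGAC (42.2%) and the repeat GGAGGA (29.3%). Sparc held CAGAC once, as GTCTG beginning 35 bases upstream, and Col6a1 held none of the 5. Col1a2 held 2 GC boxes and 1 match to each of CCAAT, the SMAD-binding letters and GGAGGA, and Col3a1 held 1 TATA box and 2 matches to CAGAC. For Col6a2, 1 entry held 3 GC boxes and 1 GGAGGA. The other held 1 match to each of the GC box, CAGAC and GGAGGA. These matches describe letters and are not sites.

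**Figure D2:**
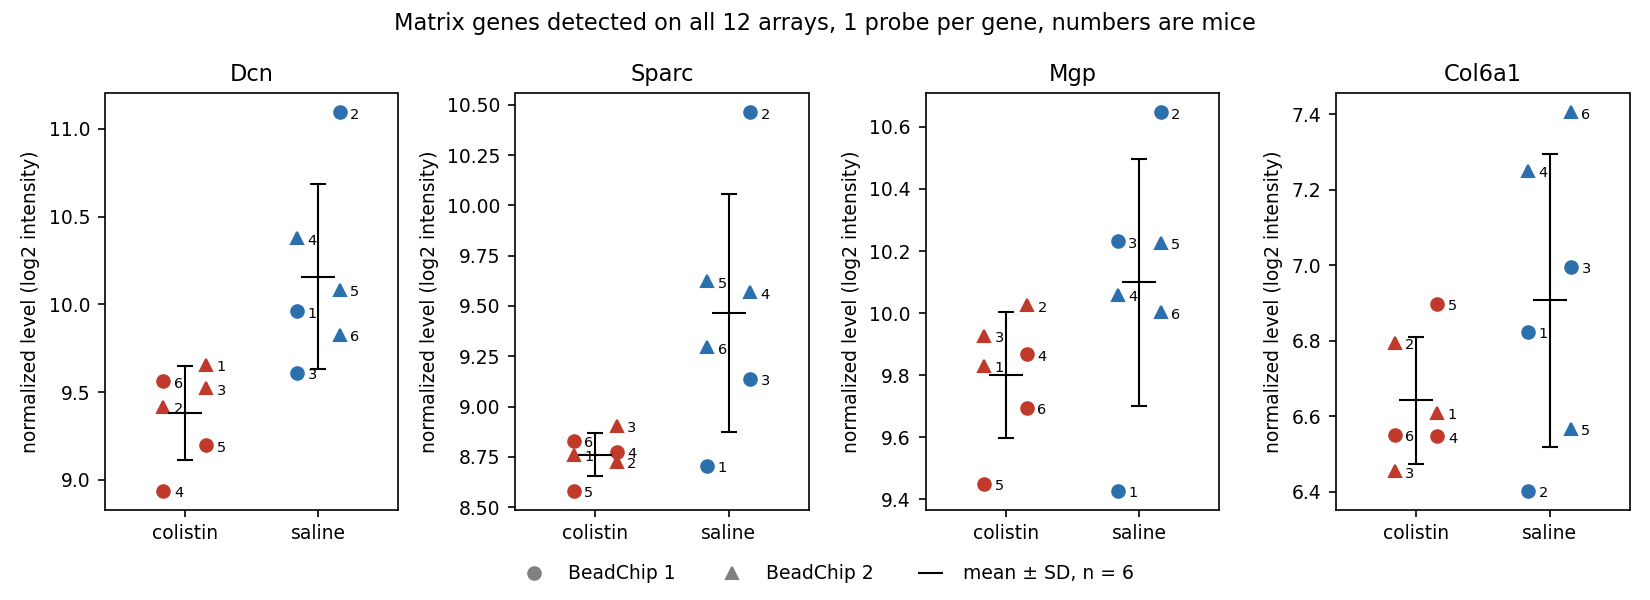
Normalized log2 intensity (y axis, a scale of its own per gene) of the 4 matrix genes detected on all 12 arrays, 1 probe each, in 6 colistin mice and 6 saline mice; each point is 1 numbered mouse, circles are BeadChip 1 and triangles BeadChip 2, and bars are the group mean ± SD. The Sparc values of the colistin mice lie between 8.58 and 8.90, and the saline values between 8.71 and 10.46.

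Of the chains of type I collagen, the main fibril of the interstitium, neither could be measured well. Col1a1 probe ILMN_2687872 was detected on 3 of 6 colistin and 3 of 6 saline arrays. Its level was 4.45, 4.68 and 5.11 in colistin mice, against 4.37, 4.74 and 4.95 in saline mice. The groups covered the same range, with a log2 fold change of 0.01 ± 0.14 (SE; limma adjusted p = 0.979). It was -0.21 on BeadChip 1 and 0.23 on BeadChip 2. The second Col1a1 probe was detected on no array. Col1a2 was detected on 0 of 6 colistin arrays and 4 of 6 saline arrays. It lay at 4.51, 4.68 and 4.94 in colistin mice, where it was not well above background, against 4.37, 4.91 and 5.11 in saline mice, and no fold is given because its bound was under 1. Col1a2 passed the detection filter through the saline group alone, so its fitted value is a description and no test. That log2 value was -0.13 ± 0.13 (SE), with 0.07 on BeadChip 1 and -0.33 on BeadChip 2. It was -0.22 without saline mouse 1 and -0.07 without saline mouse 6. Both Col3a1 probes were detected on no array. For Col6a2, 1 probe was detected on 1 of 6 colistin and 2 of 6 saline arrays, and the other on none.

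Lum encodes lumican, which like decorin binds collagen fibrils. Probe ILMN_3001540 was detected on 1 of 6 colistin and 3 of 6 saline arrays, with levels of 4.33, 4.56 and 4.79 in colistin mice, against 4.54, 4.82 and 5.76 in saline mice. The highest value was that of saline mouse 1, which also had the highest level of the adipocyte transcript Cfd (11.64, at most 9.19 in any other mouse). Of 8 adipocyte markers 2 were kept, Cfd and Car3, while Fabp4, Plin1 and Retn were detected on no array. Adipoq, Lep and Cidec were detected on at most 2 arrays. The part of adipocytes in the Lum value was not tested. The log2 fold change of Lum was -0.41 ± 0.18 (SE; limma adjusted p = 0.430), and -0.25 without saline mouse 1.

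The Lum estimate was -0.85 on BeadChip 1 and 0.02 on BeadChip 2. This difference of 0.87 ± 0.27 (SE) had an unadjusted p of 0.00698 in limma and an adjusted p of 0.9998. Lum was the 1 matrix probe of 12 with an unadjusted p under 0.05 for a difference between BeadChips, against 2.55% of all kept probes, and after adjustment limma called 0% of them. Fn1 encodes fibronectin, an early scaffold onto which collagen is laid down. Its probe ILMN_2595714, detected on 1 of 6 colistin and 3 of 6 saline arrays, lay at 4.55, 4.72 and 4.86 in colistin mice, against 4.35, 4.72 and 5.17 in saline mice. The log2 fold change of Fn1 was -0.04 ± 0.14 (SE; adjusted p = 0.920), and its direction turned with the processing and the mice left out. The other 3 Fn1 probes and the second Lum probe were detected on no array.

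**Figure D3:**
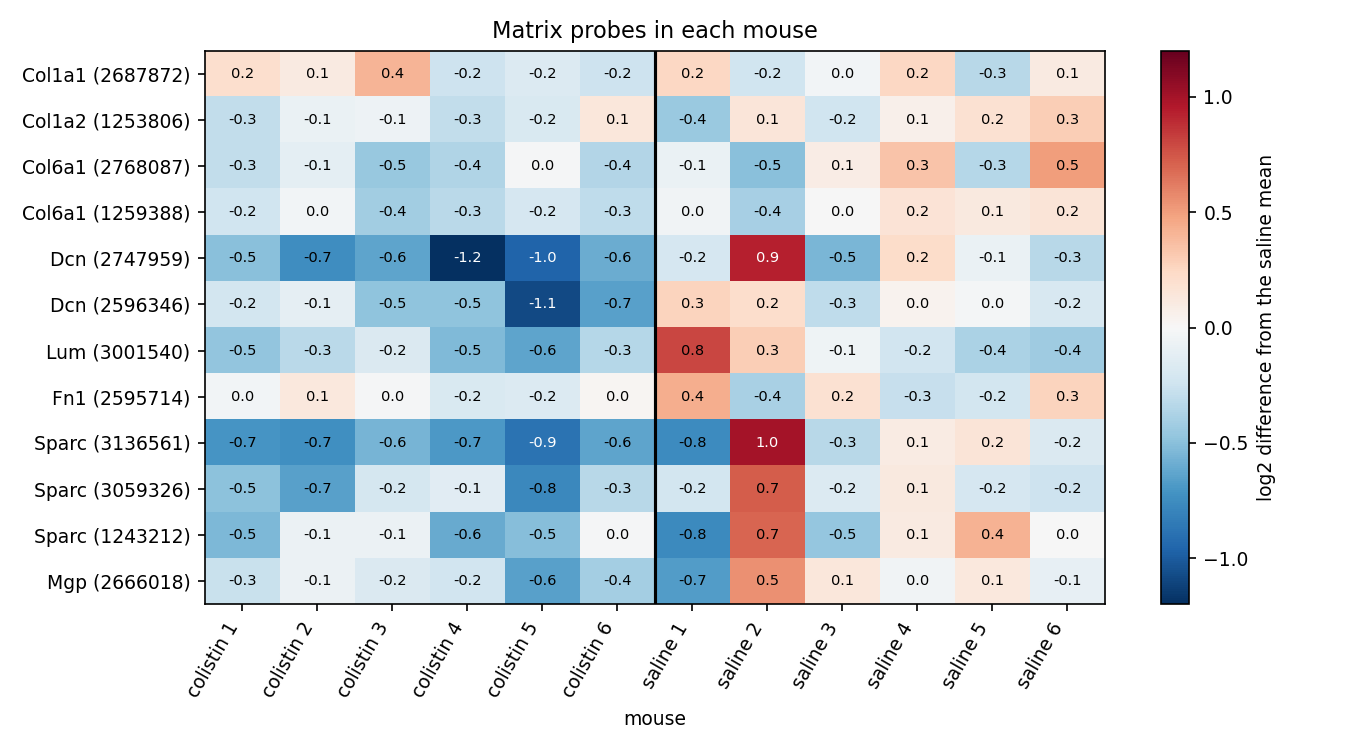
Difference of each mouse from the saline mean in normalized log2 intensity for the 12 kept probes of matrix genes, 1 probe per line and 1 mouse per column, with colistin mice left of saline mice; colour and the number in each cell give the difference in log2 units. Saline mouse 2 stands above the saline mean for Dcn, Sparc and Mgp and below it for Col6a1.

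All 6 colistin mice lay below the saline mean for 9 of the 12 kept probes, which 12.6% of all kept probes also did, and for none of the 12 were the groups free of overlap (1% of all kept probes). Within BeadChip 1, with 3 mice against 3, they were free of overlap for 3 of the 12 (6.75% of all kept probes), and within BeadChip 2 for 5 of the 12 (26.4% of all kept probes). The median over the 12 probes of the difference from the saline mean ran from -0.57 in colistin mouse 5 to -0.10 in colistin mouse 2. In the saline mice it ran from -0.14 in mouse 1 to 0.25 in mouse 2, and saline mice 1 and 3 lay within the colistin range. The spread over mice was smaller in colistin than in saline mice for 10 of the 12 probes, as it was for 78.8% of all kept probes.

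Across the 12 mice, the level of Sparc correlated with those of Mgp and Dcn, while the pooled r of Col6a1 with each of the 3 was near 0. The r of Col6a1 was negative within each group and on BeadChip 1, and positive on BeadChip 2. Of the 6 pairs of the 4 genes detected on all arrays, Sparc and Mgp had r = 0.85 (permutation p = 0.00023, 0.00102 adjusted over the 6 pairs) and rho = 0.82 (permutation p = 0.00174, adjusted 0.0104). Their r was 0.61 within the colistin mice and 0.89 within the saline mice, 0.91 on BeadChip 1 and 0.77 on BeadChip 2, and 0.66 without saline mice 2 and 5, the 2 farthest from the Sparc median. Dcn and Sparc had r = 0.89 (permutation p = 0.00034, adjusted 0.00102) and rho = 0.68 (permutation p = 0.0187, adjusted 0.0562). Their r was 0.40 within the colistin mice, 0.86 within the saline mice, 0.88 on BeadChip 1, 0.91 on BeadChip 2, and 0.62 without saline mice 2 and 4. Dcn and Mgp had r = 0.63 (permutation p = 0.0306, adjusted 0.0613) and rho = 0.47 (permutation p = 0.126, adjusted 0.253), and r fell to 0.22 without saline mice 2 and 4, so that relation rests on them. Col6a1 had r = -0.00033 with Dcn, -0.05 with Sparc and -0.13 with Mgp, with rho of 0.11, -0.13 and -0.05, and no permutation p of these was under 0.05 (0.999, 0.874 and 0.686 for r). Within the colistin mice r of Col6a1 was -0.22 with Dcn, -0.94 with Sparc and -0.45 with Mgp, and within the saline mice it was -0.56, -0.50 and -0.41, in the same order of genes. On BeadChip 1 these r were -0.42, -0.55 and -0.42, while on BeadChip 2 they were 0.47, 0.42 and 0.11. Without saline mice 4 and 6, the 2 farthest from the Col6a1 median, they were -0.38, -0.48 and -0.38. These values, over 6 to 10 mice, are a description with no test. Each pooled r includes the difference between the groups.

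**Figure D4:**
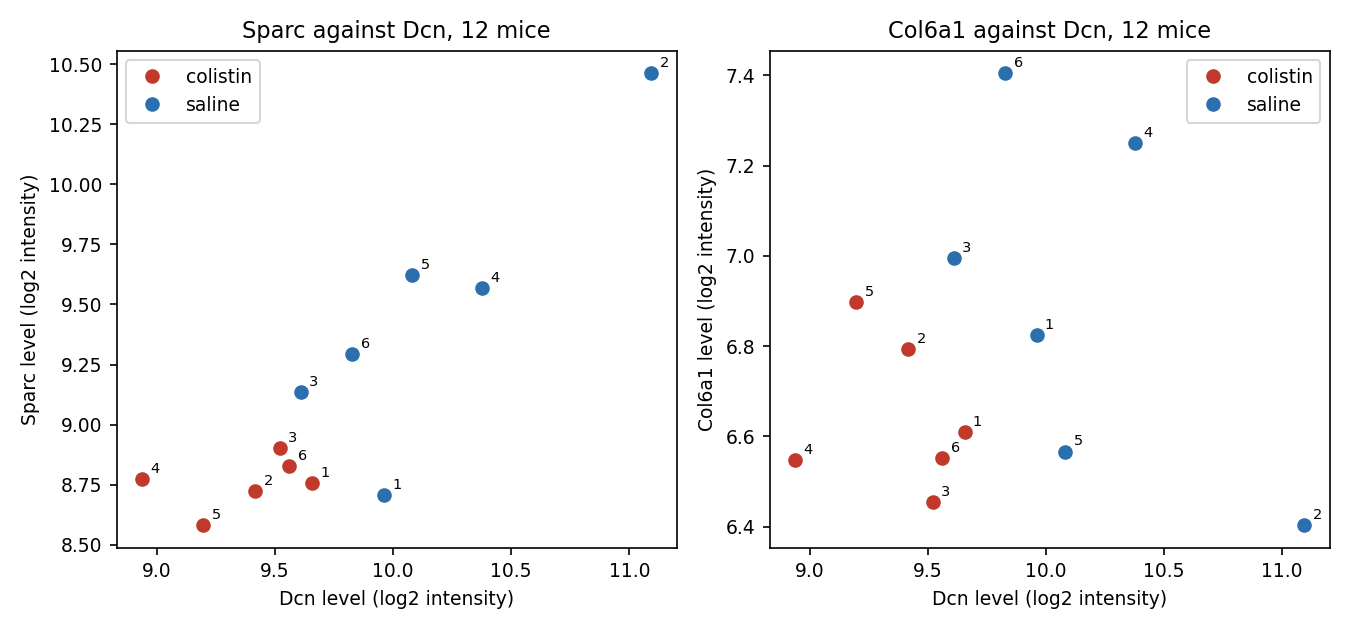
Normalized log2 intensity of Sparc (left, y axis) and Col6a1 (right, y axis) against that of Dcn (x axis), one point per mouse, with colistin mice in red, saline mice in blue and mouse numbers beside the points. Higher Sparc goes with higher Dcn over the 12 mice (r = 0.89), with saline mouse 2 at the upper end, while the pooled r of Col6a1 with Dcn is -0.00033, with -0.22 within the colistin mice and -0.56 within the saline mice.

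Genes around the matrix genes were read from lists of other collagens, proteoglycans, glycoproteins, enzymes, receptors and signals. Across these lists limma called 4 genes, all lower in colistin mice: Mmp2, Loxl1, Adamts2 and Ltbp4. Against this, 0.136% of all kept probes were called lower and 0.321% higher, and 46.9% had lower estimates. Limma called none of the other collagens, small leucine-rich proteoglycans, receptors or profibrotic signals, of which 5, 3, 1 and 1 had an unadjusted p under 0.05 (10.9% of all kept probes in either direction).

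Of 15 other fibrillar and associated collagens 9 were measured, 8 with lower and 1 with higher estimates, and their median log2 fold change was -0.13. Those with the smallest p were Col14a1, a fibril-associated collagen (-0.66 ± 0.15, SE; limma adjusted p = 0.0712; a different kept probe -0.26, adjusted p = 0.490), and Col15a1, a proteoglycan collagen near basement membranes (-0.46 ± 0.10, SE; adjusted p = 0.0715). The first of these Col14a1 probes passed with the BeadChip as a block (adjusted p = 0.0235), and it and Col15a1 passed without saline mouse 1 (adjusted p = 0.0111 and 0.00993). Col6a3, the partner chain of Col6a1, was singled out after its values were seen. It lay at 7.13, 7.48 and 7.69 in colistin mice, against 7.56, 8.29 and 9.25 in saline mice (-0.82 ± 0.23, SE; adjusted p = 0.176). The 1 collagen of this list with a higher estimate was Col27a1 (0.69 ± 0.22, SE, limma adjusted p = 0.269).

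The small leucine-rich proteoglycans, the family of Dcn and Lum, had 4 of 11 measured, 3 with lower and 1 with a higher estimate and a median of -0.75. Ogn (osteoglycin) lay at 6.65, 6.97 and 7.28 in colistin mice, against 7.35, 8.19 and 9.18 in saline mice. The groups of Ogn did not overlap, as was so for 1% of all kept probes. The log2 fold change of Ogn, -1.16 ± 0.25 (SE), did not pass in limma (adjusted p = 0.0656). Prelp, which encodes a proteoglycan that anchors basement membranes to connective tissue, was at -0.98 ± 0.21 (SE; adjusted p = 0.0656). Without saline mouse 1, Ogn (adjusted p = 0.0134) and Prelp (adjusted p = 0.00563) passed.

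Among the enzymes that assemble and crosslink collagen, 16 of 22 genes were measured, 2 fell and none rose, with a median of -0.07. Estimates were lower for 10 and higher for 6, the highest that of Pcolce (0.82 ± 0.21, SE, limma adjusted p = 0.126). Loxl1, a lysyl oxidase that crosslinks elastin and collagen, fell in colistin mice by 0.89 on the log2 scale, at 6.83 ± 0.17 (SD, n = 6) in colistin mice and 7.71 ± 0.37 (SD, n = 6) in saline mice (limma adjusted p = 0.0147). Its call was lost without colistin mouse 3 (adjusted p = 0.0522) or saline mouse 4 (adjusted p = 0.0536). Adamts2, which trims the amino-terminal propeptide of fibrillar procollagen, was at -0.69 ± 0.14 (SE; adjusted p = 0.0447) and fell at 1 of 2 kept probes, with the other at -0.33 (adjusted p = 0.204). Of 10 measured of 20 matrix-degrading enzymes and inhibitors, 1 fell and none rose, with 5 lower and 5 higher estimates and a median of -0.21. Mmp2, a gelatinase of the interstitium, lay at 4.99, 5.22 and 5.52 in colistin mice, against 5.71, 5.88 and 6.08 in saline mice. The groups of Mmp2 did not overlap, and its log2 fold change was -0.65 ± 0.11 (SE; adjusted p = 0.0134). Groups were also free of overlap at the called probes of Loxl1 and Adamts2 and at Col15a1 (1% of all kept probes).

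Elastic fibre and interstitial glycoprotein genes had 19 of 33 measured, with 15 lower and 4 higher estimates and a median of -0.38. The highest estimate was that of Spp1 (0.48 ± 0.18, SE, limma adjusted p = 0.354). Ltbp4, which encodes a binding protein of latent TGF beta, fell at 1 of 2 kept probes (-0.71 ± 0.14, SE; limma adjusted p = 0.0447; the other -0.43, adjusted p = 0.237). The calls of Ltbp4 and Adamts2 sat at the threshold and were lost without saline mouse 4 (adjusted p = 0.115 and 0.107), among other mice. Of 12 collagen and fibronectin receptors 7 were measured, with a median of -0.03, and Ddr1, a collagen-activated kinase, was at 0.32 ± 0.13 (SE; adjusted p = 0.412) and Itgav, an integrin chain, at 0.31 ± 0.15 (SE; adjusted p = 0.479). Of 13 profibrotic ligands, receptors and effectors 9 were measured, with a median of -0.06. Tgfbr3, the TGF beta co-receptor betaglycan, was at -0.39 ± 0.18 (SE; adjusted p = 0.458) and Pdgfc, a PDGF ligand, at -0.23 ± 0.18 (SE; adjusted p = 0.622). Single mice moved these estimates: Pdgfc was -0.12 without saline mouse 2, Tgfbr3 was -0.25 without colistin mouse 4 and Itgav was 0.19 without saline mouse 5.

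**Figure D5:**
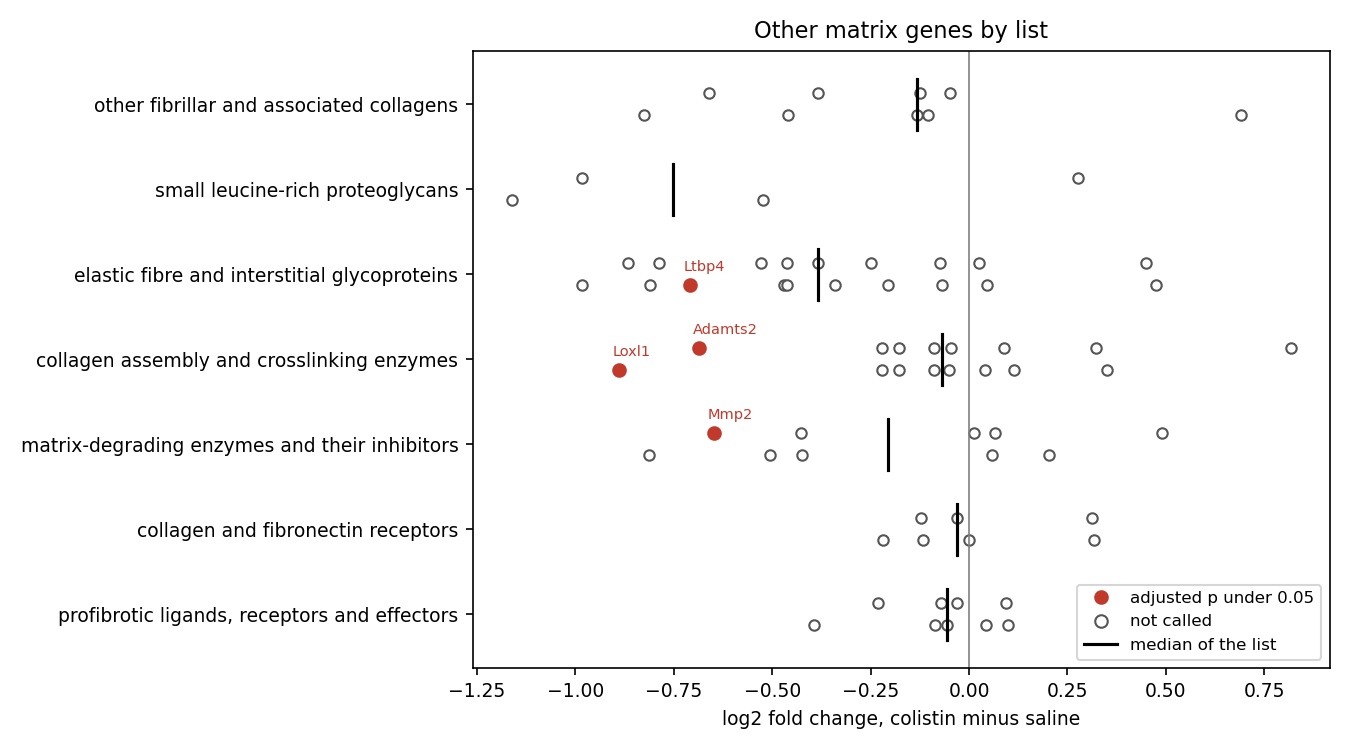
Log2 fold change, colistin minus saline, of each measured gene (points) in the related lists, 1 list per line, with the list's median as a bar; filled points passed limma at an adjusted p under 0.05. The called genes, 4 in all, lie to the left of 0.

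Most markers of the cells that make and surround this matrix had lower estimates too, and their part in the matrix values was not tested. Over all kept probes, limma called 0.136% lower and 0.321% higher, and 10.9% had an unadjusted p under 0.05 in either direction. Lower estimates were found for 46.9% of all kept probes. Of 10 fibroblast markers 7 were measured, limma called 0 (5 at an unadjusted p under 0.05), and the median log2 fold change was -0.54. Estimates were lower for 6 of the 7, with Vim higher (0.19). Gli1 and S100a4 were detected on no array and Dpt was not kept. Marker sums add normalized intensities on a linear scale, so the brightest genes of a list weigh most. The summed normalized intensity of the 7 fibroblast markers was 382 to 449 in colistin mice and 423 to 1437 in saline mice, with saline mouse 1 lowest and saline mouse 2 highest among the saline mice. Of 8 smooth muscle and pericyte markers 5 were measured, and 2 fell, the myosin light chain gene Myl9 at 1 of 2 kept probes (-0.91, limma adjusted p = 0.00144; the other -0.52, adjusted p = 0.0587) and the desmin gene Des (-0.56, adjusted p = 0.0263), while Cnn1 was detected on no array. Their sum was 529 to 849 in colistin mice and 701 to 2028 in saline mice, highest in saline mouse 1. Acta2, the brightest of the 5, weighs most in it, with a saline median of 8.62 and a highest saline level of 10.74. Myl9 (7.43) and Des (6.04) in saline mouse 1 lay below their levels in saline mouse 2 (7.70 and 6.27). Endothelial markers (7 of 8 measured, 0 called, 6 at an unadjusted p under 0.05) summed to 1732 to 2542 in colistin mice and 1454 to 4468 in saline mice, and macrophage markers (7 of 8 measured, 0 called, 3 at an unadjusted p under 0.05) to 873 to 1358 in colistin mice and 1067 to 1584 in saline mice. Estimates were lower for all 5 smooth muscle and pericyte markers and all 7 endothelial markers. Of the macrophage markers 6 were lower and Csf1r was higher (0.15). The adipocyte markers Fabp4, Plin1 and Retn, the adrenal markers Cyp11b1, Cyp11a1 and Star and the mesothelial marker Msln were detected on no array. Adipoq, Lep, Cidec and the mesothelial marker Krt19 were detected on at most 2 arrays. The adrenal marker Akr1b7 was detected on 12 arrays (log2 fold change -0.03, limma adjusted p = 0.962). The mesothelial marker Upk3b was detected on 9 arrays (-0.13, adjusted p = 0.814). The kidney marker sum was 39031 to 47132 in colistin mice and 34951 to 45078 in saline mice, with saline mice 2 and 5 lowest.

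The non-member genes whose pattern was most like those of Dcn and Sparc were found by Pearson's r of log2 levels over the 12 mice, given as a description. The rule set beforehand used Col1a1, Col1a2 and Col3a1 and could not be applied, since Col3a1 had no kept probe, and likeness to Dcn and Sparc was taken in its place after the values were seen. Dcn was most like Dmac1 (r = 0.95), Zc3h6 (0.94), Pmp22 (0.94), Gucy1a2 (0.93) and Plin3 (0.93). Sparc was most like Ccnd2 (r = 0.98), Marcks (0.98), Lbh (0.98), Frmd6 (0.98) and Gvin1 (0.98). For the 5 genes most like Sparc, r was 0.98 to 0.995 within the saline mice and 0.35 to 0.85 within the colistin mice. The r values over the 12 mice and within the saline mice share saline mouse 2 at one end.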

How the data were processed

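Total RNA of 12 kidneys was measured on 12 arrays. The deposited probe table holds mean bead intensities on a linear scale, not background-subtracted (lowest 74.7), and detection p-values, per the file headers. The authors' normalized intensities, also deposited, served as an alternative. The submitters' processing notes name GenomeStudio and Partek, with roles and versions not given in the sources used here. Intensities were background-corrected from the detection p-values, quantile-normalized with neqc (offset 16, which compresses dim probes' folds) and put on a log2 scale in limma 3.58.1 (R 4.3.3). The filter (detection p under 0.01, 4 or more of 12 arrays) kept 16179 probes. Groups were compared with lmFit and eBayes, group as the only term, with p adjusted by Benjamini-Hochberg over the 16179 probes, and the procedure was tested on simulated data. A gene stood in counts by its kept probe with the highest mean. Named were all matrix genes, and per related list every called gene or otherwise the 2 with the smallest p. Col27a1, Pcolce and Spp1 were added after the values were seen, as the highest estimates of their lists. Timp1, Ecm1 and Ccn2 also fall outside the naming rule, as do Col6a3, Thbs1 and Thbs2. One kidney marker is not reported here. The members and lists were chosen with earlier results of these data known. Replicate numbers did not pair the mice: same-numbered mice lay on different BeadChips, and their deviations correlated at -0.26 to 0.12. Precision is limited by 6 arrays a group. Alternatives covered background correction, normalization, detection filter, BeadChip, replicate block, test, threshold and each mouse left out.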

Additional observations from a re-analysis of the deposited data

Results flagged for a closer look

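Both groups of the 12 kept matrix probes were searched for a mouse far from the other 5 of its group, by Dixon's test (critical value 0.625), and 2 of 24 groups held one. Chance gives about 1 in 20. Both were saline mouse 2. At Col6a1 probe ILMN_1259388 it lay at 5.79, below 6.15 to 6.35 in the other saline mice (gap over range 0.636). At Sparc probe ILMN_3059326 it lay at 7.50, above 6.52 to 6.88 in the other saline mice (gap over range 0.631). The same mouse thus lay low for one matrix gene and high for another, and it had the highest fibroblast and endothelial marker sums of the saline mice. No matrix probe was a far value in the colistin mice.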

How the results depend on the processing

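Of 327 values of matrix probes under an alternative, 307 kept direction and side of the threshold, 6 passed newly and 14 turned direction. Of the turned ones, Fn1 was 0.15 in the authors' normalized intensities, 0.11 on BeadChip 2 and -0.12 to 0.048 with each mouse left out (above 0 without saline mouse 1 or 6). Col1a1 (0.01 as reported) was -0.21 on BeadChip 1, -0.011 with array weights, -0.13 without saline mice 2 and 5, and -0.068 to 0.063 with each mouse left out. Col1a2 was 0.068 on BeadChip 1 and Lum (-0.41 as reported) 0.023 on BeadChip 2. The median of the matrix probes was -0.13 with median scaling, which moved all probes by 0.20 (matrix minus all -0.32), -0.15 with no background correction and -0.19 with normexp at offset 50 (matrix minus all -0.15 and -0.20), -0.047 with no detection filter (25 probes), and -0.36 to -0.28 with each mouse left out. Matrix probes without overlap numbered 3 on BeadChip 1 (6.75% of all kept probes), 5 on BeadChip 2 (26.4%), both 3 against 3 mice, and 0 to 1 with each mouse left out (1.13% to 3.4%). With median scaling Pdgfc was -0.0089, Tgfbr3 -0.13, Ddr1 0.57 and Itgav 0.54.

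Probes called in all (74 as reported, 52 higher and 22 lower) numbered 43 with normexp at offset 50, 25 with no background correction (23 higher, 2 lower), 33 with no detection filter, 27 where detected on all 12 arrays, 0 on BeadChip 1 (339 at an unadjusted p under 0.05) and 298 on BeadChip 2 (103 and 195) in limma, 471 with array weights (199 and 272), 138 at an adjusted p under 0.1, 64 with median scaling (60 and 4), and 38 to 330 with each mouse left out, highest without saline mouse 1 (107 and 223). The replicate block, which pairs only numbers, gave 36 and changed no call of a matrix gene. Of 324 values of the named related genes, 249 kept their side, 59 lost a call, 16 gained one and 0 turned. All 4 related calls were lost with median scaling, on BeadChip 1, with no background correction and with the replicate block. None of the 4 passed in the adjusted permutation test either, and these losses are counted in the 59. That test could pass no probe, since its smallest possible p, 0.00216, became 0.216 after adjustment. It therefore cannot show whether the 4 calls hold. The cause of these changes was not tested. Signal near background limits Col1a1, Col1a2, Lum and Fn1, and no value can be given for Col3a1.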

Other observations

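The authors' tables averaged per gene symbol mix detected and undetected probes. In them Dcn was at -0.59 (limma adjusted p = 0.449) after neqc and -0.78 (adjusted p = 0.201) in the authors' normalized values, Sparc at -0.38 and -0.70, and Mgp at -0.35 and -0.30, none called.

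Among related genes, Thbs1 and Thbs2, which encode the matricellular thrombospondins, were singled out after their detection was seen, and each passed the detection filter through 1 group alone, so these values are a description and no test. Thbs1 was detected on 4 of 6 colistin and 0 of 6 saline arrays, and Thbs2 on 0 of 6 colistin and 6 of 6 saline arrays. Timp1, an inhibitor of matrix metalloproteinases, was detected at the brighter of 2 kept probes on 6 of 6 colistin and 3 of 6 saline arrays. The log2 fold change of Timp1 there was 0.49 ± 0.26 (SE; limma adjusted p = 0.503), and its other kept probe had an adjusted p of 0.372. Ecm1, an extracellular glycoprotein, was at -0.98 ± 0.22 (SE; adjusted p = 0.0656) at 1 kept probe and at -0.11 ± 0.13 (SE; adjusted p = 0.740) at the other, and Ccn2, a matricellular protein induced by TGF beta, at -0.81 ± 0.23 (SE; adjusted p = 0.206).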
